A study of Mus musculus with 6 samples.

Results

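The genes described are 38 mouse genes of glycolysis, the pentose phosphate pathway and the response to low oxygen, taken by name from the 33924 gene rows of a table of raw read counts. All 38 had a row, with pyruvate kinase under its older symbol Pkm2. A filter on low counts kept 13406 genes, 37 of the 38 among them, and left out Ldhb. The libraries came from 2 kinds of acute myeloid leukaemia, both driven by the fusion oncogene MLL-AF9 delivered by retrovirus. In the LSK-derived group (3 libraries: LSK 44, LSK 45 and LSK 46) the oncogene had been put into LSK cells, the bone marrow fraction rich in stem cells. In the GMP-derived group (3 libraries: GMP 5, GMP 11 and GMP 19) the target was granulocyte-macrophage progenitors, cells already restricted to myeloid fates. Both groups shared every later step: expansion of the immortalized cells in culture, transplantation of GFP+ cells with wild-type support marrow into lethally irradiated C57BL/6 mice, harvest of marrow from moribund animals, and growth in IMDM with serum, SCF, IL-3 and IL-6. No library was labelled as drug-treated, no animal age was given, and the oxygen level of the cultures is not given in the sources used here. Nothing in the labels tells whether the libraries in a group stem from different transduced cultures or animals. P-values therefore reflect only how far these libraries vary, and that variation may be technical.

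Glycolysis splits glucose into pyruvate in the cytosol, and its ATP and carbon skeletons feed rapidly dividing cells such as leukaemia blasts. Pyruvate is either burned in mitochondria through pyruvate dehydrogenase or reduced to lactate and exported, while the pentose phosphate branch diverts glucose to NADPH and ribose. When oxygen is scarce, prolyl hydroxylases stop marking the transcription factor HIF1A for destruction, and HIF1A raises many genes of glucose uptake, glycolysis and lactate export. Blood stem cells of the marrow niche are known for reliance on glycolysis and HIF1A.

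Expression is given as CPM, counts scaled to a library of 1e6 counts after scaling by TMM (trimmed mean of M-values), always in the order LSK 44, LSK 45, LSK 46 and GMP 5, GMP 11, GMP 19. Fold changes are on the log2 scale, LSK-derived minus GMP-derived, with an approximate standard error (SE) taken from the test. Adjusted p-values are from edgeR's quasi-likelihood test over all tested genes with Benjamini-Hochberg adjustment, and a gene was called below 0.05. LSK 44 had the fewest counts (16640929) and GMP 11 the most (33885428), and a count of 0 allows up to 3 counts, or 0.180 and 0.0885 CPM in those libraries, for counting error alone. The first principal component of the 500 most variable genes held 81.4% of the variance and separated the groups, and the next, with 10.3%, set GMP 5 apart from GMP 11 and GMP 19. Of a list of 12 progenitor and granule markers, 11 had a row and were tested, of which 5 were called (Kit and Flt3 higher, Cebpa, Ctsg and Ptprc lower), and their summed level was 3889 to 5435 CPM in LSK-derived leukaemias and 3548 to 6096 CPM in GMP-derived libraries. Among them Mpo, the myeloperoxidase gene, was at 1406, 791 and 824 CPM in LSK-derived leukaemias and 13.8, 314 and 504 CPM in GMP-derived libraries, without a call (adjusted p = 0.247). Other granule genes overlapped between groups without a call. Elane was at 728, 669 and 330 CPM in LSK-derived leukaemias and 65.4, 810 and 1573 CPM in GMP-derived libraries. Prtn3 was at 712, 638 and 529 CPM in LSK-derived leukaemias and 237, 648 and 864 CPM in GMP-derived libraries. Markers of other cells differed in places, while 25.7% of all tested genes were called. Of 12 erythroid and megakaryocyte markers, 5 were tested and 1 was called, higher. All 12 summed to 25.4 to 196 CPM in LSK-derived leukaemias, mostly from Hbb-b2 and Itga2b, and 2.10 to 12.99 CPM in GMP-derived libraries. Of 9 neutrophil markers, 7 were tested and 2 were called, lower. All 9 summed to 49.7 to 179 CPM in LSK-derived leukaemias and 18.97 to 587 CPM in GMP-derived libraries, with GMP 19 highest. Of 9 monocyte markers, 8 were tested and 1 was called, higher. All 9 summed to 296 to 1017 CPM in LSK-derived leukaemias and 315 to 918 CPM in GMP-derived ones. Of 9 mast cell, basophil and eosinophil markers, 7 were tested, with 3 called higher and 1 lower. All 9 summed to 115 to 182 CPM in LSK-derived leukaemias and 87.4 to 339 CPM in GMP-derived ones. GMP 5 had the highest sum, with Cpa3 at 88.5 CPM and Hdc at 185 CPM. Hdc lay higher in every GMP-derived library, while Epx, Prg2, Mcpt8 and Gata2 lay higher in every LSK-derived one. Epx was at 21.9, 2.61 and 10.9 CPM in LSK-derived leukaemias and 0.0819, 0 and 0 CPM in GMP-derived libraries. Prg2 was at 29.6, 4.49 and 15.6 CPM in LSK-derived leukaemias and 1.31, 0.0885 and 0.561 CPM in GMP-derived libraries. B cell markers summed to 14.7 to 22.2 CPM in LSK-derived leukaemias and 3.89 to 8.74 CPM in GMP-derived libraries (Ms4a1 and Pax5 at 0). T and NK cell markers summed to 7.45 to 9.06 CPM in LSK-derived leukaemias and 7.17 to 8.24 CPM in GMP-derived ones (Cd3e and Ncr1 at 0). Of 9 stromal and endothelial markers, 3 were tested and 1 was called, lower. All 9 summed to 191 to 330 CPM in LSK-derived leukaemias and 148 to 227 CPM in GMP-derived ones (Col1a2 at 0). Most of it was Pecam1, at 218, 323 and 190 CPM in LSK-derived leukaemias and 190, 161 and 115 CPM in GMP-derived libraries. Pdgfrb lay the other way, at 2.46, 4.84 and 0.545 CPM in LSK-derived leukaemias and 36.4, 13.9 and 30.5 CPM in GMP-derived libraries. The part of these markers in the results was not tested, and in bulk RNA fewer cells of a type and less RNA per cell cannot be told apart.

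The promoter sequences of the 3 lower and the 3 higher genes with the smallest adjusted p are shown because these 6 genes lead the differences described below in each direction, and several are textbook HIF1A targets. Each is the 250 bases before the transcription start in RefSeq on GRCm38.p6, a different build from the counts, written 5′ to 3′ on the gene's strand, and the same 250 bases were searched in every promoter counted below. Capitals mark ACGTG and GCGTG, the cores of the hypoxia response element to which HIF1A binds, on either strand.
Slc16a3 promoter (chr11:120948817-120949066, plus strand): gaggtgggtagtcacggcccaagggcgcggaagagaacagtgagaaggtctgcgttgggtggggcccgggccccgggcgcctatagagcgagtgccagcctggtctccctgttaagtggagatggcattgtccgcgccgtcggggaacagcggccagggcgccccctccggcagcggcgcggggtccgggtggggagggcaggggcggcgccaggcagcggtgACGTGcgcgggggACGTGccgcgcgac
Egln1 promoter (chr8:124949255-124949504, minus strand): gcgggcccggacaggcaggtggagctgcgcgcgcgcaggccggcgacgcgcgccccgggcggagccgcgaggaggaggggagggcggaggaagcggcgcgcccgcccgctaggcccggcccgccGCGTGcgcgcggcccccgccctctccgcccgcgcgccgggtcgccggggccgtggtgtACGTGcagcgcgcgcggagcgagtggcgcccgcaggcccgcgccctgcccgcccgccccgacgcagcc
Pfkfb4 promoter (chr9:108991652-108991901, plus strand): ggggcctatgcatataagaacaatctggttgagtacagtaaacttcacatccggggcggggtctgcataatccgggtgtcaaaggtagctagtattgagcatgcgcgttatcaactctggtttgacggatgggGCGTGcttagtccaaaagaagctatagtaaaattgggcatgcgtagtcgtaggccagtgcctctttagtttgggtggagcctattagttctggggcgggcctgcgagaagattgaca
Egln3 promoter (chr12:54203875-54204124, minus strand): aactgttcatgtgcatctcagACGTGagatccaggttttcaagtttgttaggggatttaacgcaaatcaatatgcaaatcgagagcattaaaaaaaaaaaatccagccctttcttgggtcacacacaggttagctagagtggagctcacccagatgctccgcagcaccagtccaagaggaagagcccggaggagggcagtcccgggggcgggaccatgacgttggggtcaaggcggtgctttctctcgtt
Hk3 promoter (chr13:55021386-55021635, minus strand): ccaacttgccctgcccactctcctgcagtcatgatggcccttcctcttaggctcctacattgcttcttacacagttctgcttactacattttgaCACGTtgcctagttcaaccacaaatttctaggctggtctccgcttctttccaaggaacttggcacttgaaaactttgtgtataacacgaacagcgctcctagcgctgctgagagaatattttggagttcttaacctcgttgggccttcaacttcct
Pdk3 promoter (chrX:93832151-93832400, minus strand): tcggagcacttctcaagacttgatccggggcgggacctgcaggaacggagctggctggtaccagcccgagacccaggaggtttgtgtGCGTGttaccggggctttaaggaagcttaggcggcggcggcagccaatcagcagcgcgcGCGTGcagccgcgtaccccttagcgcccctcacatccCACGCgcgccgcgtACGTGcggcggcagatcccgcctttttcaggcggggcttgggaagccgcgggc
Slc16a3 carried ACGTG at 27 and 14 bases before the start, Egln1 carried GCGTG at 126 and ACGTG at 68, and Pfkfb4 carried GCGTG at 117. Among the higher genes, Egln3 had ACGTG at 229 bases before the start, Hk3 had it on the other strand at 156, and Pdk3 had 4 matches between 163 and 53. Positions are counted back from the start to the first letter on the printed strand. The letters were thus present in genes that moved in both directions. Of 52 promoters of 36 matched genes, 42 (80.8%) held ACGTG or GCGTG on either strand, against 55.4% of the 12310 promoters of tested genes and 38.6% of all 32851 in the table. For ACGTG alone the share was 42.3% in these 52, against 21.6% for tested genes and 16.6% in the whole table. For CACGTG, the E-box that contains ACGTG, it was 13.5%, against 8.37% for tested genes and 6.02% in the whole table. Median GC content was 60.4% in the promoters of the genes described and 59.6% in those of tested genes, several starts belong to the same gene, and a match describes letters and not a bound site.

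More of these genes were lower than higher in the LSK-derived leukaemias, led by the lactate exporter gene Slc16a3. Of 37 tested genes, 12 fell (32.4%) and 3 rose (8.11%), while over all tested genes 13.9% were called lower and 11.8% higher, 25.7% in all. The median log2 fold change was -0.18, against 0.01 over all tested genes, and 27 of 37 values were negative. The groups did not overlap in 24 of 37 genes, 18 with LSK-derived below and 6 above, where the share over all tested genes was 45.4% (22.8% below and 22.5% above). The genes that fell were Slc16a3, Aldoc, Pfkfb4, Egln1, Pgam1, Tpi1, Aldoa, Pfkp, Ldha, Taldo1, Pfkm and Pgd. Those that rose were Egln3, Hk3 and Pdk3. The number lower ran from 8 (without LSK 44) to 13 (without GMP 5) in fits that left out a library, and the number higher was 3 or 4. DESeq2 called 17 lower and 6 higher.

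**Figure D1:**
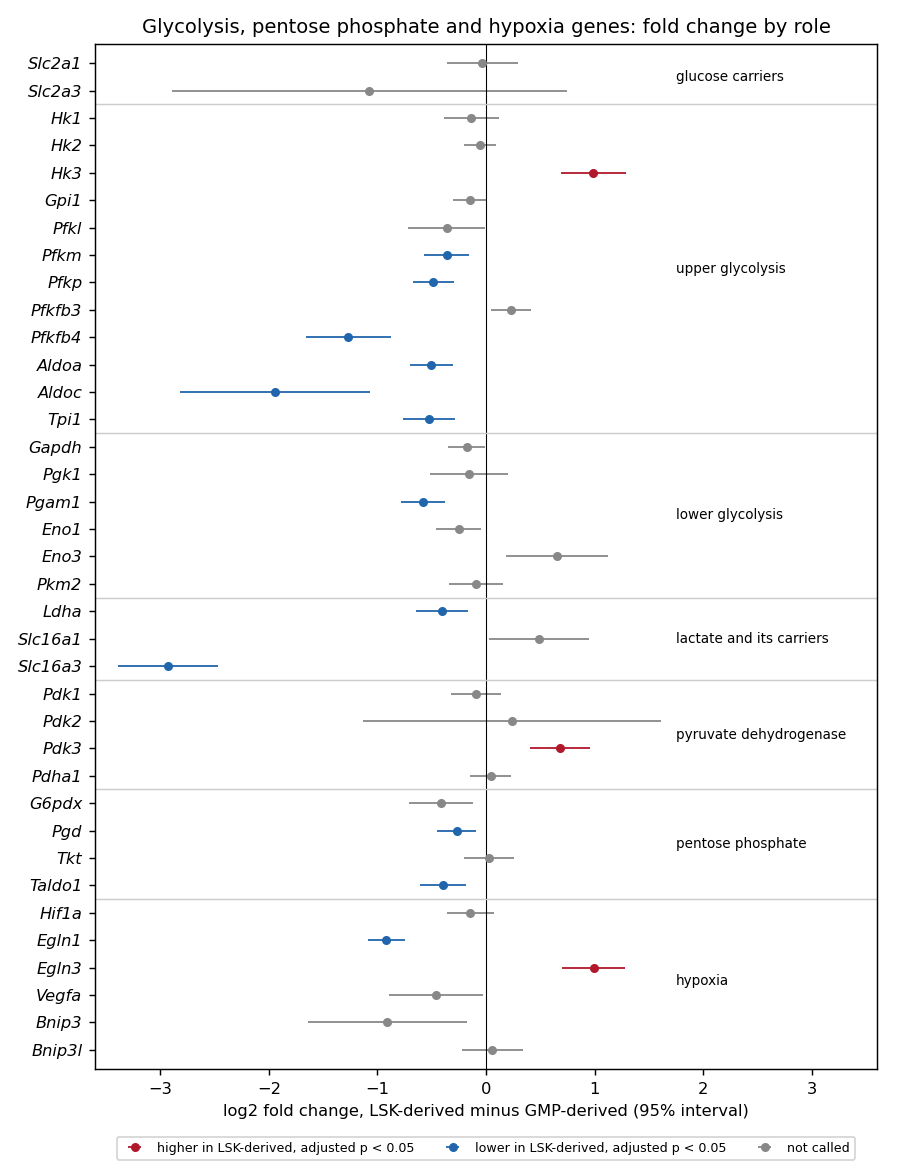
Log2 fold changes (x axis, LSK-derived minus GMP-derived, with 95% intervals) of the 37 tested genes, ordered down the page from glucose uptake to the hypoxia response. Of the genes, 12 lie below 0 and are called, 3 lie above 0 and are called, and Slc16a3 at -2.92 lies farthest from 0.

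Glucose enters through SLC2A1 and SLC2A3 (GLUT1 and GLUT3), and neither carrier gene was called. Slc2a1 was at 50.2, 49.0 and 69.1 CPM in LSK-derived leukaemias and 60.0, 56.7 and 55.8 CPM in GMP-derived leukaemias (log2 fold change -0.03, 95% interval -0.36 to 0.29). Slc2a3 was at 7.26, 6.71 and 9.41 CPM in LSK-derived leukaemias and 32.9, 2.97 and 13.7 CPM in GMP-derived libraries. The GMP-derived libraries lay on both sides of the LSK-derived ones in Slc2a3, and its log2 fold change of -1.08 had a 95% interval of -2.89 to 0.74 (adjusted p = 0.338). The value was -0.11 without GMP 5, -1.57 without GMP 11 (adjusted p = 0.0439) and 0.31 with limma voom and sample weights. On a list of 15 other carrier genes that also holds Bsg, Emb and Txnip, which are not carriers, 3 of 9 tested genes fell and none rose. Over all tested genes 13.9% were called lower. Slc2a6 was at 9.07, 9.03 and 9.08 CPM in LSK-derived leukaemias and 28.3, 31.5 and 43.3 CPM in GMP-derived leukaemias (log2 fold change -1.92 ± 0.17 SE, adjusted p = 0.000886). Slc2a6 encodes a lysosomal hexose carrier, and it was the most abundant of the fallen carriers. Slc2a9, a urate carrier of the same family, averaged 8.06 ± 1.33 CPM in LSK-derived leukaemias and 15.5 ± 2.76 CPM in GMP-derived leukaemias (SD over 3 libraries each; adjusted p = 0.0125). The fructose carrier gene Slc2a5 was near the floor, at 0.154 ± 0.0283 CPM in LSK-derived leukaemias and 0.897 ± 0.0993 CPM in GMP-derived leukaemias (adjusted p = 0.00269).

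Hexokinases trap glucose in the cell as glucose phosphate, and the myeloid isozyme Hk3 rose while Hk1 and Hk2 were not called. Hk3 was at 813, 912 and 772 CPM in LSK-derived leukaemias and 348, 434 and 477 CPM in GMP-derived leukaemias (log2 fold change 0.99 ± 0.13 SE, adjusted p = 0.00298). Every LSK-derived library was above every GMP-derived one. Hk1, the ubiquitous form, was at 202, 194 and 230 CPM in LSK-derived leukaemias and 201, 234 and 253 CPM in GMP-derived leukaemias (95% interval of the log2 fold change -0.39 to 0.12). Hk2, the form that many tumours raise, was at 134, 129 and 142 CPM in LSK-derived leukaemias and 141, 139 and 142 CPM in GMP-derived leukaemias (-0.20 to 0.09). The Hk2 interval was the narrower of the pair. Counted per kilobase of exon, Hk3 was the most abundant hexokinase RNA in every library and made up 78.6 ± 2.60% of the family in LSK-derived and 63.2 ± 2.03% in GMP-derived leukaemias (SD, n = 3 each).

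The steps from phosphofructokinase to triose phosphate isomerase held 6 of the 12 genes that fell. From the hexokinases to triose phosphate isomerase 12 genes were tested. These 6 fell (50%, against 13.9% over all tested genes) and 1 rose (8.33%, against 11.8%). Phosphofructokinase commits sugar to glycolysis. Its platelet-type subunit gene Pfkp was at 229, 229 and 240 CPM in LSK-derived leukaemias and 357, 322 and 299 CPM in GMP-derived leukaemias (log2 fold change -0.49 ± 0.08 SE, adjusted p = 0.00679). The muscle-type Pfkm was at 44.1, 47.2 and 52.8 CPM in LSK-derived leukaemias and 63.4, 58.4 and 63.6 CPM in GMP-derived leukaemias (adjusted p = 0.0261, and up to 0.0917 without LSK 44, LSK 45 or GMP 19). The liver-type Pfkl was at 138, 155 and 210 CPM in LSK-derived leukaemias and 215, 215 and 218 CPM in GMP-derived libraries and was not called (adjusted p = 0.119, and 0.0142 without LSK 46). The shares of the 3 subunits in the family overlapped between groups, with Pfkp at 47.3 ± 3.95% in LSK-derived and 49.1 ± 2.35% in GMP-derived leukaemias (SD, n = 3 each; difference -1.76 points). The bifunctional enzymes PFKFB3 and PFKFB4 set the level of a regulatory fructose bisphosphate that activates phosphofructokinase and differs from the pathway intermediate, and of their genes Pfkfb4 fell. Pfkfb4 was at 6.59, 7.57 and 6.96 CPM in LSK-derived leukaemias and 14.5, 15.8 and 20.7 CPM in GMP-derived leukaemias (log2 fold change -1.27 ± 0.17 SE, adjusted p = 0.00306). Pfkfb3, with 134, 138 and 121 CPM in LSK-derived leukaemias and 117, 114 and 105 CPM in GMP-derived libraries, had the opposite sign without a call (0.23 ± 0.08 SE, adjusted p = 0.0749).

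Aldolase splits the fructose bisphosphate that phosphofructokinase makes, and both of its tested genes fell. Aldoa was at 1224, 1432 and 1478 CPM in LSK-derived leukaemias and 1885, 1981 and 1994 CPM in GMP-derived leukaemias (log2 fold change -0.50 ± 0.08 SE, adjusted p = 0.00708). Aldoc, the brain-type form and a HIF1A target, was at 6.11, 12.3 and 8.41 CPM in LSK-derived leukaemias and 24.6, 28.7 and 50.6 CPM in GMP-derived leukaemias (-1.95 ± 0.36 SE, adjusted p = 0.0123, and 0.0536 without LSK 46). Its fold was the larger, but Aldoc made up only 0.550 ± 0.162% of aldolase RNA per kilobase in LSK-derived and 1.49 ± 0.562% in GMP-derived leukaemias (SD, n = 3 each). Tpi1, which interconverts the triose phosphates, was at 581, 695 and 714 CPM in LSK-derived leukaemias and 1032, 948 and 883 CPM in GMP-derived leukaemias (-0.52 ± 0.10 SE, adjusted p = 0.0115). Gpi1, the isomerase just above phosphofructokinase, lay lower in every LSK-derived library (774 to 846 CPM, against 853 to 931 CPM in GMP-derived libraries) without a call (-0.14, 95% interval -0.30 to 0.01).

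In the later steps of glycolysis, which recovers ATP, Pgam1 alone of 6 tested genes was called. That is 16.7%, against 25.7% of all tested genes. Pgam1, phosphoglycerate mutase, was at 123, 144 and 123 CPM in LSK-derived leukaemias and 191, 202 and 189 CPM in GMP-derived leukaemias (log2 fold change -0.58 ± 0.08 SE, adjusted p = 0.00437). Gapdh was at 1292, 1401 and 1466 CPM in LSK-derived leukaemias and 1552, 1645 and 1508 CPM in GMP-derived libraries, and Eno1 (enolase) at 974, 1027 and 1104 CPM in LSK-derived leukaemias and 1258, 1334 and 1107 CPM in GMP-derived libraries. For both the groups did not overlap, with log2 fold changes of -0.18 and -0.25 and adjusted p-values of 0.113 and 0.0780. Pkm2, pyruvate kinase, was the most abundant of the 37 genes by CPM, at 1800, 2408 and 2089 CPM in LSK-derived leukaemias and 2273, 2211 and 2241 CPM in GMP-derived leukaemias (95% interval of the log2 fold change -0.34 to 0.15). Pgk1, phosphoglycerate kinase, overlapped between groups (278 to 372 CPM in LSK-derived, 316 to 436 CPM in GMP-derived libraries). The muscle enolase gene Eno3 was low and higher in each LSK-derived library (5.53 to 6.08 CPM, against 2.99 to 4.46 CPM in GMP-derived libraries), just short of a call (adjusted p = 0.0518, and from 0.0190 to 0.153 over its alternatives). Per kilobase of exon, the highest levels in LSK-derived libraries ran from Gapdh at 927 through Pkm2 at 808, Ldha at 744 to Aldoa at 537 CPM per kilobase. In GMP-derived libraries Gapdh (1049) was followed by Ldha (985), Pkm2 (862) and Aldoa (762 CPM per kilobase).

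Summed over the 18 glycolytic enzymes and regulators from Hk1 to Pkm2, the level was 8759, 10155 and 9885 CPM in LSK-derived leukaemias and 10966, 11109 and 10801 CPM in GMP-derived libraries. All LSK-derived sums lay below all GMP-derived ones, and their mean was 87.6% of the GMP-derived mean. LSK 44, the library with the fewest counts, had the lowest sum. Of these 18 genes, 7 fell, 1 rose and 10 were not called, and 11 lay lower without overlap. Over all tested genes 13.9% were called lower, 11.8% were called higher and 22.8% lay lower without overlap.

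**Figure D2:**
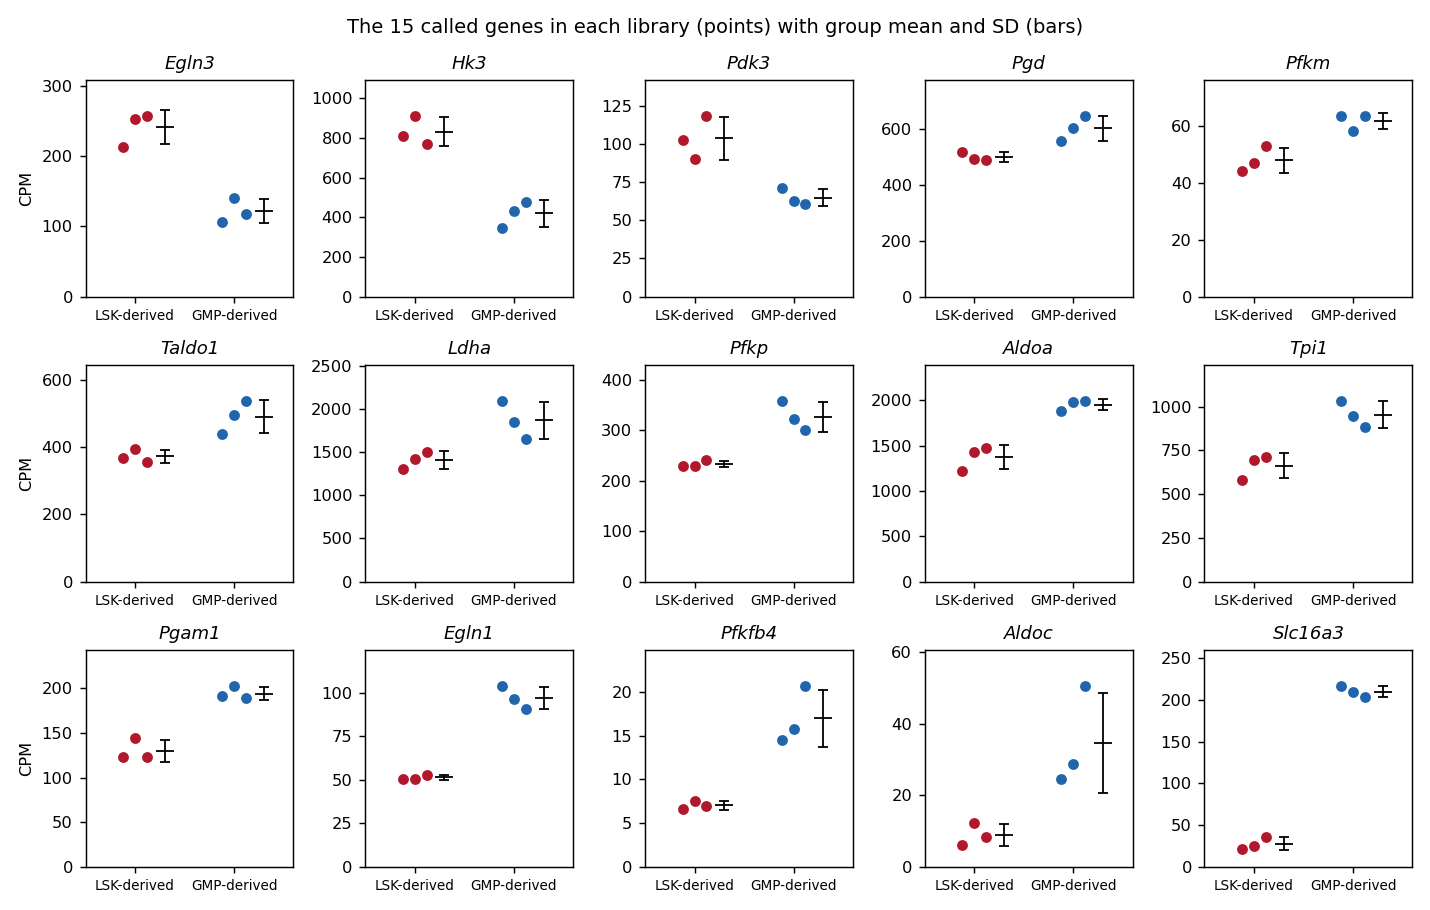
CPM (y axis, from 0) of the 15 called genes in each library, with LSK-derived libraries 44, 45 and 46 in red at the left and GMP-derived libraries 5, 11 and 19 in blue at the right of each panel, and bars for the group mean and SD. The groups do not overlap in any panel, and Slc16a3 has 21.1 to 36.1 CPM in LSK-derived against 203 to 217 CPM in GMP-derived libraries.

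The largest difference among the 37 genes was in the RNA of the lactate carrier gene Slc16a3, and lactate export itself was not measured. Slc16a3 encodes MCT4, the low-affinity carrier by which highly glycolytic cells release lactate. It was at 21.1, 25.4 and 36.1 CPM in LSK-derived leukaemias and 217, 209 and 203 CPM in GMP-derived libraries. This was 7.59-fold lower in the LSK-derived group (log2 fold change -2.92 ± 0.19 SE, adjusted p = 0.000541), and it was called in each of 13 alternative fits, with log2 fold changes from -3.17 to -2.77. The high-affinity carrier gene Slc16a1 (MCT1) was at 185, 154 and 175 CPM in LSK-derived leukaemias and 138, 143 and 86.7 CPM in GMP-derived libraries and was not called (log2 fold change 0.49, 95% interval 0.02 to 0.95, adjusted p = 0.113). Slc16a3 was 10.2, 14.1 and 16.99% of their summed RNA per kilobase in LSK-derived and 61.0, 59.3 and 70.0% in GMP-derived libraries. Slc16a1 was the more abundant carrier RNA in every LSK-derived library and Slc16a3 in every GMP-derived one (two-sided exact permutation test p = 0.1, the smallest that 3 against 3 allows).

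Ldha, the lactate dehydrogenase subunit that favours making lactate, was at 1304, 1420 and 1503 CPM in LSK-derived leukaemias and 2091, 1852 and 1655 CPM in GMP-derived libraries. The groups did not overlap and the difference was called (log2 fold change -0.40 ± 0.10 SE, adjusted p = 0.0275), but not without LSK 44, LSK 45, LSK 46 or GMP 11 (adjusted p up to 0.102). Ldhb, the heart-type subunit, had 10, 3 and 6 counts in LSK-derived and 3, 0 and 9 counts in GMP-derived libraries, too few to test. Ldha made up at least 99.9% of lactate dehydrogenase RNA per kilobase in each library.

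Pyruvate dehydrogenase kinases block the entry of pyruvate into the citric acid cycle, and of these Pdk3 rose. Pdk3 was at 103, 90.0 and 118 CPM in LSK-derived leukaemias and 71.1, 62.5 and 60.5 CPM in GMP-derived leukaemias (log2 fold change 0.68 ± 0.12 SE, adjusted p = 0.00778). Pdk1 was at 113, 141 and 138 CPM in LSK-derived leukaemias and 143, 143 and 132 CPM in GMP-derived leukaemias (95% interval -0.33 to 0.14). Pdk1 and Pdk3 are both known HIF1A targets, and of the pair Pdk3 alone was called. Pdk2 was at 0.656 to 4.02 CPM over the libraries. Pdha1, the catalytic subunit that the kinases phosphorylate, was at 174 to 197 CPM in LSK-derived leukaemias and 167 to 187 CPM in GMP-derived leukaemias (95% interval -0.14 to 0.23). Of 10 other tested genes of this step, 1 rose (10%, near the 11.8% over all tested genes) and none fell (13.9% over all tested genes). That gene was Pdp1, the phosphatase that reverses the kinases, at 13.7, 14.2 and 13.5 CPM in LSK-derived leukaemias and 9.10, 8.82 and 9.18 CPM in GMP-derived leukaemias (0.61 ± 0.11 SE, adjusted p = 0.00829).

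Of 4 pentose phosphate genes, Pgd and Taldo1 fell and G6pdx and Tkt were not called, where 13.9% of all tested genes were called lower. G6pdx, the rate-limiting dehydrogenase that makes NADPH, was at 228, 218 and 175 CPM in LSK-derived leukaemias and 242, 283 and 303 CPM in GMP-derived libraries and narrowly missed a call (log2 fold change -0.41 ± 0.13 SE, adjusted p = 0.0502). Pgd, the other NADPH-making dehydrogenase, was at 518, 492 and 487 CPM in LSK-derived leukaemias and 555, 604 and 646 CPM in GMP-derived leukaemias (-0.27 ± 0.07 SE, adjusted p = 0.0386). Taldo1, transaldolase of the non-oxidative arm, was at 369, 394 and 356 CPM in LSK-derived leukaemias and 439, 495 and 537 CPM in GMP-derived leukaemias (-0.39 ± 0.09 SE, adjusted p = 0.0201). In all 3 genes each LSK-derived library lay below each GMP-derived one. The calls of Pgd and Taldo1 were lost in 5 and 3 of the 6 fits that left out 1 library (with adjusted p reaching 0.138 for Pgd, without LSK 44, LSK 45, LSK 46, GMP 11 or GMP 19, and 0.0832 for Taldo1, without LSK 44, LSK 46 or GMP 11). Tkt, transketolase, was at 891, 866 and 919 CPM in LSK-derived leukaemias and 754, 960 and 910 CPM in GMP-derived leukaemias (95% interval -0.20 to 0.26). Of 7 other tested genes of the branch, Rpia, the isomerase that forms ribose phosphate, fell (112, 105 and 109 CPM in LSK-derived, against 136, 177 and 160 CPM in GMP-derived libraries, adjusted p = 0.0116) and 6 were not called.

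Of 6 genes of the oxygen response, Egln1 fell, Egln3 rose and 4 were not called, where 25.7% of all tested genes were called. Hif1a was at 201, 205 and 170 CPM in LSK-derived leukaemias and 217, 220 and 198 CPM in GMP-derived libraries and was not called (log2 fold change -0.14, 95% interval -0.36 to 0.07), and its protein, which oxygen controls, was not measured. Egln1 (PHD2), the main hydroxylase that marks HIF1A, was at 50.7, 50.6 and 52.8 CPM in LSK-derived leukaemias and 104, 96.6 and 90.8 CPM in GMP-derived leukaemias (-0.92 ± 0.07 SE, adjusted p = 0.000657). Egln3 (PHD3), its relative, was at 213, 254 and 258 CPM in LSK-derived leukaemias and 106, 140 and 118 CPM in GMP-derived leukaemias (0.99 ± 0.12 SE, adjusted p = 0.00258). Both genes are themselves known HIF1A targets, and they moved apart by similar factors, 1.89-fold lower and 1.99-fold higher. The ratio of Egln3 to Egln1 CPM was 4.21, 5.02 and 4.88 in LSK-derived and 1.03, 1.45 and 1.30 in GMP-derived leukaemias (two-sided exact permutation test p = 0.1, the smallest that 3 against 3 allows). Both calls stood in all 13 alternative fits. The angiogenic factor gene Vegfa was at 69.4, 89.6 and 70.9 CPM in LSK-derived leukaemias and 86.2, 97.6 and 133 CPM in GMP-derived leukaemias (adjusted p = 0.108). Bnip3, a mitophagy receptor gene that HIF1A raises, was at 26.6, 50.1 and 62.6 CPM in LSK-derived leukaemias and 102, 74.5 and 86.1 CPM in GMP-derived libraries. Its groups did not overlap, but LSK 44 lay far below the other LSK-derived libraries and the gene was not called (log2 fold change -0.91 ± 0.30 SE, adjusted p = 0.0720). Its relative Bnip3l was at 76.6 to 99.5 CPM in LSK-derived leukaemias and 80.9 to 96.8 CPM in GMP-derived libraries.

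**Figure D3:**
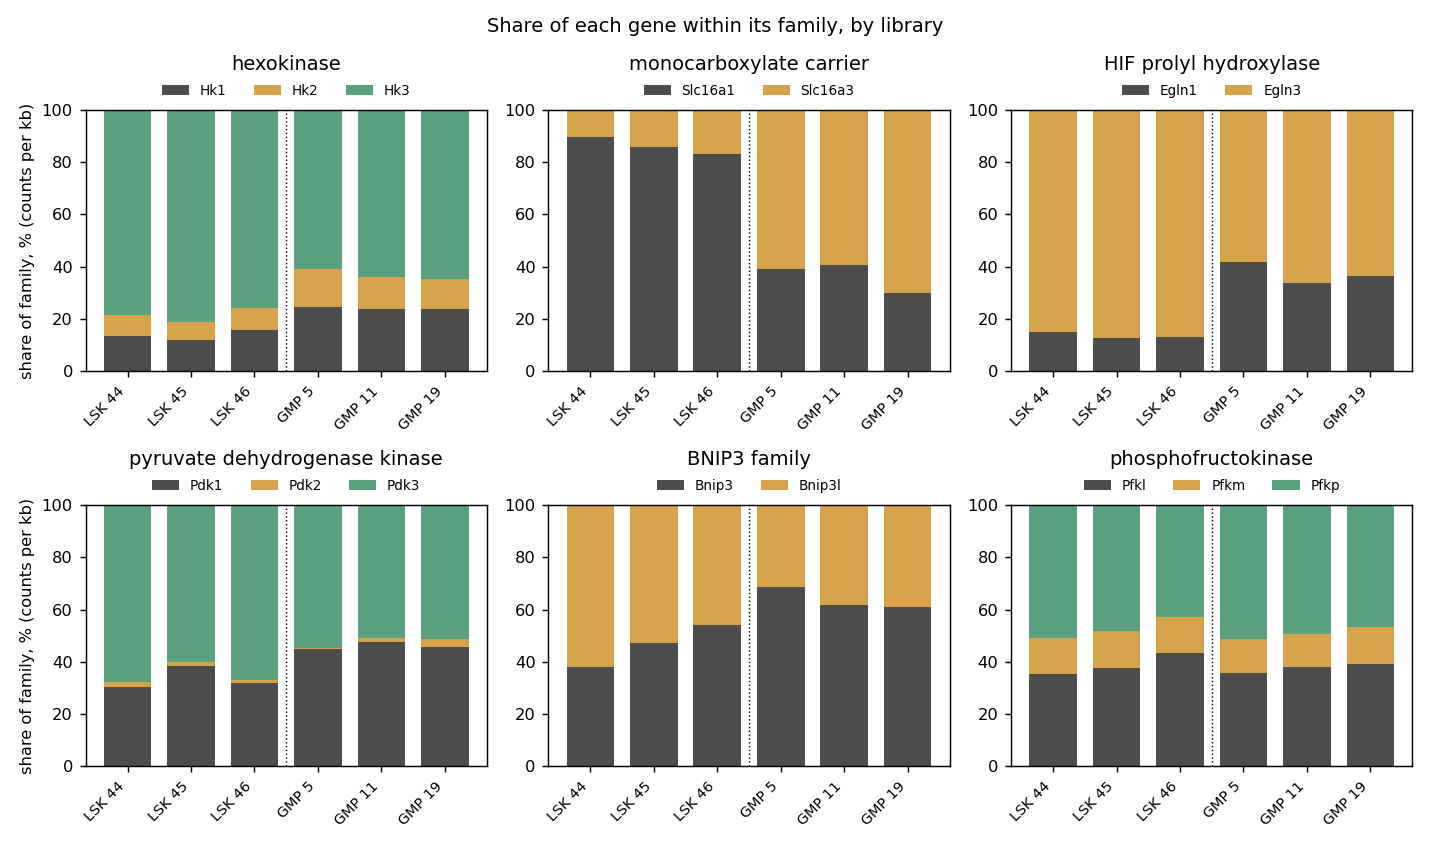
Share of each gene in 6 isozyme families (y axis, percent of counts per kilobase of exon) in each library. LSK-derived libraries are at the left of the dotted line and GMP-derived ones at the right. Families hold only the genes described, so the prolyl hydroxylase panel leaves out Egln2. The share of Slc16a3 in its sum with Slc16a1 is 10.2 to 16.99% in LSK-derived against 59.3 to 70.0% in GMP-derived libraries. The share of Egln1 in its sum with Egln3 is 12.9 to 15.0% in LSK-derived against 33.8 to 41.9% in GMP-derived libraries. Both are lower in every LSK-derived library, while phosphofructokinase shares overlap.

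Across 10 isozyme families, formed only from the genes described, 15 of 23 shares did not overlap between groups, in 7 families. In the 5 of these families with 2 genes each (aldolase, enolase, lactate carriers, prolyl hydroxylases and BNIP3 proteins) both shares mirror each other, so that 10 of the 15 come from 5 comparisons. Levels of single genes did not overlap for 45.4% of all tested genes. For each of the 15 shares the two-sided exact permutation test gave p = 0.1, the smallest possible, and 0.153 after adjustment over the 23 shares. Egln1 was 13.7 ± 1.14% of the Egln1 and Egln3 sum in LSK-derived and 37.3 ± 4.16% in GMP-derived leukaemias (SD, n = 3 each), and Pdk3 was 64.9 ± 4.32% of its family in LSK-derived and 52.3 ± 2.06% in GMP-derived leukaemias. Bnip3 was 46.4 ± 8.004% of the Bnip3 and Bnip3l sum in LSK-derived and 63.9 ± 4.14% in GMP-derived libraries. The glucose carriers, lactate dehydrogenases and phosphofructokinases had no share whose groups were apart.

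The other genes of these pathways, on 7 lists chosen by name, also held more lower than higher genes. Of 90 tested genes 19 fell (21.1%, against 13.9% over all tested genes) and 4 rose (4.44%, against 11.8%), with a median log2 fold change of -0.14. Among 31 tested further hypoxia targets 9 fell and 2 rose, with a median of -0.30. P4ha2, a collagen prolyl hydroxylase gene, was low, at 0.181, 0.471 and 0.375 CPM in LSK-derived leukaemias and 3.89, 1.78 and 1.55 CPM in GMP-derived leukaemias (adjusted p = 0.00990). Fam162a, a mitochondrial protein gene, averaged 51.9 ± 7.80 CPM in LSK-derived leukaemias and 87.9 ± 13.6 CPM in GMP-derived leukaemias (adjusted p = 0.0118, and 0.0517 without LSK 46), and Gys1, glycogen synthase, averaged 62.6 ± 0.417 CPM in LSK-derived leukaemias and 78.4 ± 2.96 CPM in GMP-derived ones (adjusted p = 0.0118, and up to 0.0526 without LSK 44 or LSK 46). The genes that rose were low in level. Adm, the peptide hormone adrenomedullin, was at 0.847, 2.04 and 0.666 CPM in LSK-derived libraries and had 3 counts in GMP-derived ones, a ratio of 36.4 (exact 95% counting interval 12.5 to 176, adjusted p = 0.00963). Its fitted log2 fold change of 5.03 depends on the prior count and is no bound, and it was 4.36 without LSK 45, the library with the most Adm, and 7.90 without GMP 19. The ATP receptor gene P2rx7 averaged 4.26 ± 1.24 CPM in LSK-derived leukaemias and 1.61 ± 0.850 CPM in GMP-derived leukaemias (adjusted p = 0.0465, and up to 0.126 without LSK 44, LSK 45, LSK 46, GMP 5 or GMP 11).

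Of 14 tested genes of the HIF machinery, 1 rose, 1 fell and 12 were not called, with a median log2 fold change of 0.01. For this and the next 2 lists, the shares over all tested genes were 13.9% lower and 11.8% higher. Cited2, which competes with HIF1A for its coactivators, was at 94.5, 87.6 and 92.8 CPM in LSK-derived leukaemias and 64.2, 67.3 and 70.8 CPM in GMP-derived leukaemias (0.44 ± 0.07 SE, adjusted p = 0.00560). Epas1, which encodes HIF2A, was at 0.786, 0.785 and 1.08 CPM in LSK-derived leukaemias and 3.16, 1.31 and 3.66 CPM in GMP-derived libraries, and lost its call (adjusted p = 0.0331) with limma voom and in 5 of 6 fits that left out 1 library (reaching 0.112; without LSK 44, LSK 45, LSK 46, GMP 5 or GMP 19). Of 13 other tested glycolysis genes, 3 fell and none rose. The row 9630033F20Rik, which RefSeq names Tigar, a p53 target whose product lowers the regulatory fructose bisphosphate and so opposes glycolysis, was at 30.4, 26.5 and 19.9 CPM in LSK-derived leukaemias and 52.7, 62.7 and 62.0 CPM in GMP-derived leukaemias (-1.21 ± 0.16 SE, adjusted p = 0.00327). Pgp, a phosphatase that clears a side product of pyruvate kinase, averaged 28.1 ± 2.83 CPM in LSK-derived leukaemias and 46.5 ± 7.25 CPM in GMP-derived leukaemias (adjusted p = 0.0108), and Pfkfb2, a relative of Pfkfb4, averaged 29.2 ± 2.34 CPM in LSK-derived leukaemias and 39.2 ± 4.08 CPM in GMP-derived ones (adjusted p = 0.0272, and up to 0.0968 without LSK 44, LSK 46 or GMP 19). Of 6 tested glycogen genes 2 fell. Ugp2, which makes the sugar donor for glycogen, was at 90.4, 98.0 and 75.2 CPM in LSK-derived leukaemias and 198, 190 and 184 CPM in GMP-derived leukaemias (-1.12 ± 0.10 SE, adjusted p = 0.00108).

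**Figure D4:**
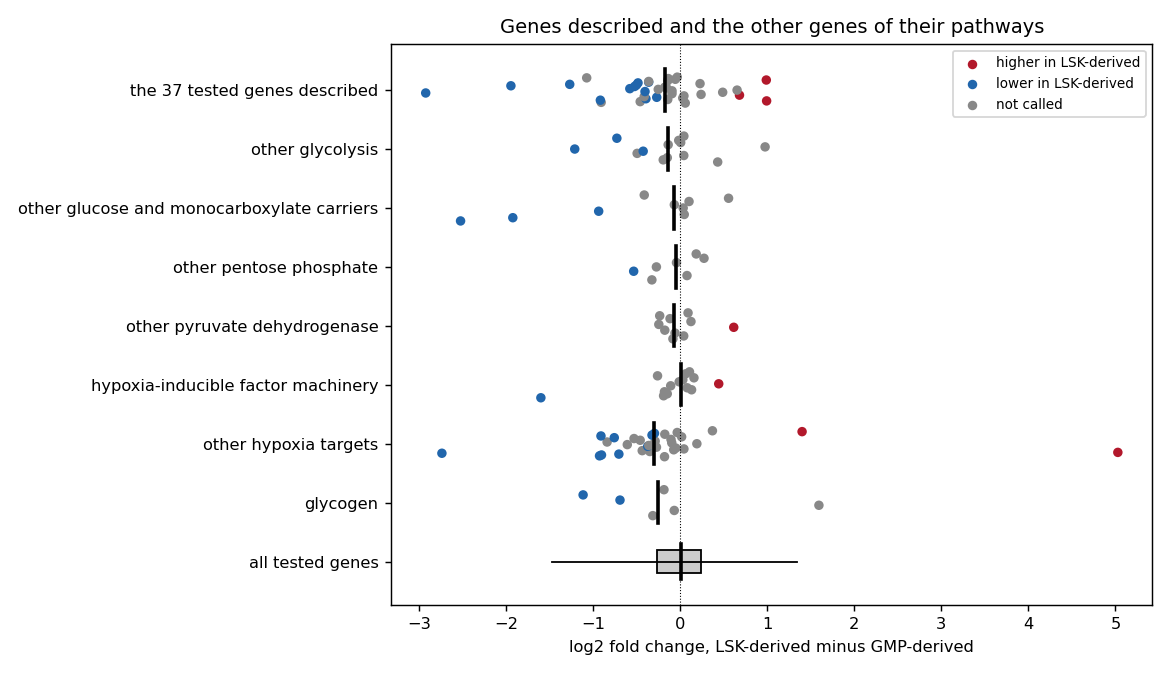
Log2 fold changes (x axis, LSK-derived minus GMP-derived) of the 37 genes described and of tested genes on 7 further lists, as points with the median as a bar, and all 13406 tested genes as a box (quartiles) with a line from the 5th to the 95th percentile. The medians of the genes described (-0.18) and of further hypoxia targets (-0.30) lie below that of all tested genes (0.01).

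Some genes overlap neighbours or have copies, and the strand setting of the counting is not known. Exons of Pfkp overlap those of Pitrm1 on the opposite strand over 748 of 4298 bases, those of Pdha1 overlap Map3k15 over 603 bases, those of Hif1a overlap Gm15283 over 330 bases, and those of Slc2a1 overlap Gm12868 over 105 bases. Exons of Hk3, Pfkm, Aldoa and Tpi1 overlap a neighbour over 18 to 34 bases. Named copies of Aldoa, Eno1, Ldha, Pgam1 and Pgk1 in the table held at most 1.28% as many counts as the gene itself, and reads that fit several copies may have been dropped or moved between them.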

How the data were processed

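RNA was measured in 6 libraries, made with the TruSeq RNA kit from TRIzol-extracted RNA per the labels' protocols. What the authors deposited is a single table of raw counts, by gene symbol. The tools named, per the submitters' processing notes, are STAR 2.4, HTSeq 0.6.1 and DESeq2, with mm9 as the build. For the annotation, the strand setting and each tool's role, nothing is stated in the sources used here, and reads of antisense overlaps cannot be told apart. The test was edgeR 4.0.16 in R 4.3.3 (filterByExpr, TMM, robust glmQLFit and glmQLFTest, no covariate) on all 6 libraries. The SE was computed as |log2 fold change| / sqrt(F), and 95% intervals use it. Alternatives were other scalings, no filter, no robust estimation, DESeq2 1.42.0, limma 3.58.1 (voom, with and without sample weights) and each library left out. Exon lengths and overlaps came from GENCODE M21 and promoters from RefSeq, both on another build (GRCm38) than the counts. For shares and per-kilobase levels, counts were divided by merged exon length. CPM in the text divides counts by the total over tested genes times the TMM factor, and marker sums use CPM of library totals without TMM. Genes of the 38 were all accounted for, with library values for those called and for leading members of families. From each further list up to 3 called genes in each direction were named by smallest p, except 1 called gene that is not reported here. The genes and lists were chosen with earlier results of these data known, so none is independent evidence. Within each group, every pair of libraries varied beyond sampling noise (chi-square per degree of freedom at least 10.5).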

Additional observations from a re-analysis of the deposited data

How the results depend on the processing

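Of 15 called genes, 10 were called in each of the 13 alternatives (Slc16a3, Egln1, Egln3, Hk3, Pfkfb4, Pgam1, Pfkp, Aldoa, Pdk3 and Tpi1). The other 5 (Aldoc, Pfkm, Ldha, Pgd and Taldo1) lost the call in at least 1 fit without a library, while keeping their sign. Of the 22 genes not called, 10 were called in at least 1 alternative. No called value changed sign. The number of the 37 genes called higher was 3, and 6 with DESeq2, and between 3 and 4 without a library; the number called lower was 12, and between 8 and 13 without a library. Over all genes, 3444 were called, and between 1750 (without LSK 46) and 3467 (without GMP 5) when a library was left out. Without LSK 46 these were 770 higher and 980 lower, and without LSK 44 857 higher and 973 lower. Without a library the highest counts were 1523 higher and 1944 lower (both without GMP 5), and without LSK 44 the total was 1830. These fits hold fewer samples, and the cause was not tested further. Scaling moved the median of all genes by at most 0.03 on the log2 scale. The enolase shares moved by more than their spread when counts were not divided by length, to a difference of 0.254 points. Depth limits Ldhb, Adm and other genes near the floor. No paired analysis was possible because the groups share no replicate numbers.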
